A study of Mus musculus with 23 samples.

Results

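The 7 genes described here, Fos, Fosb, Egr2, Egr3, Egr4, Nr4a2 and Nr4a3, encode transcription factors that neurons switch on within minutes of synaptic activity. They were taken as every probe whose symbol in the platform's probe table is one of these names, which gave 1 probe per gene on each print layout, 7 of the 8726 gene symbols on the arrays. Prefrontal cortex RNA came from male Balb/c mice of 8 weeks that had received 1000000 CT-26.WT cells, a colon carcinoma line, subcutaneously in 300 µl PBS, or 300 µl PBS alone, and were killed 18, 72 or 192 h later. Each array, printed in house with oligonucleotides, held tumour and PBS cortex RNA together, one in Cy3 and the other in Cy5, and a gene's value was taken as the tumour signal over the PBS signal on a log2 scale. The labels name no genetic change in the mice and do not say how many made up a replicate, and the PBS mice were killed at the same 3 times. The replicates used at 18 h were 3 (6 arrays, total RNA), those at 72 h 2 (3 arrays, total RNA) and those at 192 h 4 (7 arrays), where replicates 1 and 2 were made from poly(A) RNA and replicates 3 and 4 from total RNA. Nothing in the labels says that replicates came from separate mice, so the p values measure the spread between these samples, which may be technical. Channel A of the scanner files was read as Cy3, and were it Cy5 every direction below would turn.

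These factors are known as immediate early genes. Calcium entry and growth factor signalling in an active neuron phosphorylate CREB and the serum response factor complex, which already sit on the promoters, so that transcription starts without new protein synthesis and ends again soon after. The proteins made then switch on a second set of genes that alter synapses, and the mRNAs serve as a widely used marker of which cortical neurons were recently active.

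Of the 23 arrays, 7 were left out because the brightness of their probes did not follow that of the same names on other layouts (mean Spearman's rho 0.00468 to 0.0609, against 0.189 to 0.502 on the 16 arrays kept). The kept array of 72 h replicate 3, with tumour RNA in Cy5, had a rho of only 0.0616 with arrays of its own layout, and 72 h results are therefore given with and without this replicate. A scanner file of the kept arrays held 1821 to 8638 usable spots, and their number limits the precision. The 6 neuron markers on the arrays had a median brightness percentile of 83.6 to 97.1 on the 192 h arrays and 56.1 to 97.9 on the 72 h arrays. On the 18 h arrays that percentile was only 26.2 to 52.1, and on 2 of the 6 it was at or above that of the keratin and testis genes, which cortex should lack. The part of this in the 18 h results was not tested. Tissue RNA was measured, so fewer cells of a type and less RNA per cell cannot be told apart.

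No member passed the limma test of tumour against PBS cortex at any time, with Benjamini-Hochberg adjustment across every probe tested. At 18 h 0 of 6 members tested passed an adjusted p of 0.05, where the share among all 5739 probes was 0%, and 0 of 6 had an unadjusted p under 0.05, against 4.65% of all probes. At 72 h 0 of 3 passed (0% of 4617 probes), and 1 of 3, Nr4a2, had an unadjusted p under 0.05, against 1.06% of all probes. At 192 h 0 of 7 passed (0% of 7143 probes), and 0 of 7 had an unadjusted p under 0.05, against 2.58%. Over the 3 times in order, the median of the members' fitted log2 ratios was -0.01, 0.00 and -0.00, and that of all probes -0.02, -0.01 and 0.01. What the members did show was a wide spread of single arrays. Nr4a3 and, at 18 h, Fos and Fosb gave unlike ratios in the 2 dye orientations of the same RNA, and Nr4a2 stood far from 0 on 1 array.

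**Figure D1:**
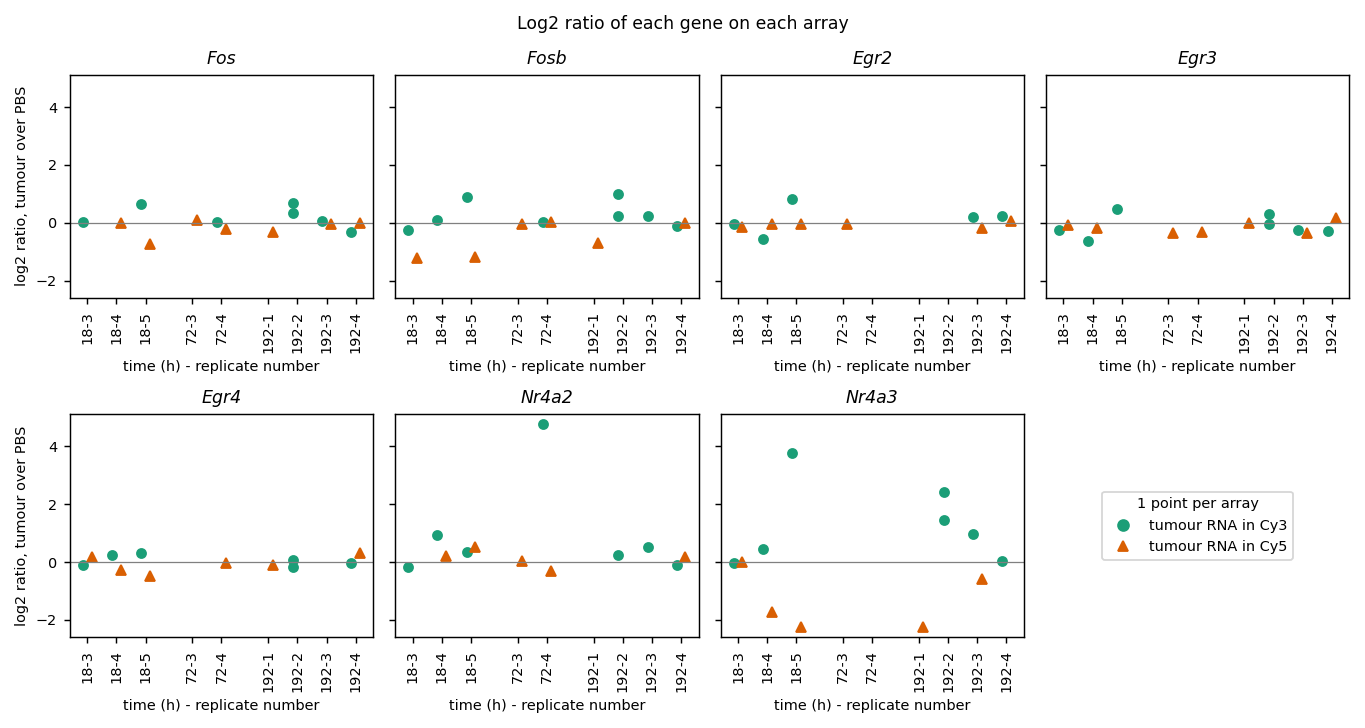
Log2 ratio of tumour over PBS (vertical axis) on each kept array, 1 panel per gene, by time in hours and replicate number (horizontal axis). Circles are arrays with tumour RNA in Cy3 and triangles arrays with tumour RNA in Cy5. For Nr4a3 the circles lie between -0.03 and 3.79 and the triangles between -2.25 and -0.01, and the circle of Nr4a2 at 72 h replicate 4 stands at 4.78.

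Fos and Fosb are the Fos proteins that pair with Jun proteins to form AP-1, a dimer that binds DNA in the promoters and enhancers of later genes. Fos had a usable spot on 14 of the 16 arrays. At 18 h both dye orientations were measured in replicate 5 alone, at 0.66 with tumour RNA in Cy3 and -0.75 with tumour RNA in Cy5, a mean of -0.05. With 1 replicate, Fos was not tested at 18 h. The other 2 arrays with a value lay close to 0, at 0.03 in replicate 3 with tumour RNA in Cy3 and at -0.02 in replicate 4 with tumour RNA in Cy5.

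At 72 h the log2 ratio of Fos was 0.09 in replicate 3 and -0.09 in replicate 4. At 192 h it was -0.31, 0.51, -0.00 and -0.17 in replicates 1 to 4. The 72 h values lay on both sides of 0, and at 192 h only the replicate measured with tumour RNA in Cy3 alone was above it. The fitted log2 ratio was -0.00 ± 0.20 (SE, n = 2) at 72 h by limma (adjusted p = 1.0) and -0.09 without replicate 3. At 192 h the limma fit gave 0.01 ± 0.14 (SE, n = 4, adjusted p = 0.999), or -0.09 over the total RNA replicates alone, with a 95% interval of the tumour over PBS fold from 0.802 to 1.26. The gene has its start on chromosome 12, and its promoter is printed here because Fos is the textbook target of CREB, whose core site it holds. It is the RefSeq window of 250 bases before to 50 after the start, chr12:85473640-85473939 on the plus strand of GRCm38.p6, with the CRE core TGACGT (either strand) in capitals.
Fos: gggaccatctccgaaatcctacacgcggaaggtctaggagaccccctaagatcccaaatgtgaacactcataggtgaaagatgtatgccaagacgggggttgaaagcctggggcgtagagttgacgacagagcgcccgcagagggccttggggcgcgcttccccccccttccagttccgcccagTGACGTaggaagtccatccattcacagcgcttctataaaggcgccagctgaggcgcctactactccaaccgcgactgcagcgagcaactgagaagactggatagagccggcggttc

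Fosb, whose mRNA also gives the long-lived splice form ΔFosB, had a spot on 14 arrays. At 18 h its log2 ratio was -0.73 in replicate 3 and -0.15 in replicate 5, at 72 h -0.03 in replicate 3 and 0.04 in replicate 4, and at 192 h -0.69, 0.61 and -0.06 in replicates 1, 2 and 4. Both 18 h values were below 0, and those of 72 and 192 h lay on both sides of it. The 18 h mean was -0.44 ± 0.27 (SE, n = 2, limma adjusted p = 0.995), lower in 2 of 2 replicates. Replicate 4 gave a value only on its array with tumour RNA in Cy3, 0.09, and with 1 orientation taken as enough the mean was -0.26. Fosb and Egr3 were the 2 of 6 members with every replicate lower at 18 h, against 20.9% of all probes. Each had 2 replicates there, where that share also holds probes with 3. The fold of Fosb had a 95% interval from 0.478 to 1.13.

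The 2 orientations did not match in the 18 h replicates of Fosb. In replicate 3 the log2 ratio was -0.24 with tumour RNA in Cy3 and -1.22 with tumour RNA in Cy5. In replicate 5 it was 0.89 with tumour RNA in Cy3 and -1.19 with tumour RNA in Cy5. The low 18 h values of Fosb thus rest on the arrays with tumour RNA in Cy5. At 72 h replicate 4 the same 2 values were 0.04 and 0.04, and at 192 h replicate 4 they were -0.12 and -0.01. The fitted log2 ratio was 0.00 ± 0.27 (SE, n = 2) at 72 h, 0.04 without replicate 3, and -0.05 ± 0.22 (SE, n = 3) at 192 h, both with a limma adjusted p over 0.99. At 192 h it was 0.27 without replicate 1 and -0.38 without replicate 2, the replicates measured in Cy5 alone and in Cy3 alone.

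Egr2, Egr3 and Egr4 are zinc finger factors of the Egr family, which bind a GC-rich site. Egr2 is known for its part in myelination, Egr3 in muscle spindles and in long-lasting synaptic change, and Egr4 in male fertility. All 3 lay within 0.4 of 0 in every replicate. Egr2 had a spot on 11 arrays, and at 18 h it could be read in 9 of 18 scanner files. Replicates 3 to 5 at 18 h had log2 ratios of -0.09, -0.31 and 0.39, replicate 3 at 72 h had -0.05, and replicates 3 and 4 at 192 h had 0.00 and 0.14. The 18 h values lay on both sides of 0 and spanned those of 192 h. The fit gave -0.00 ± 0.16 (SE, n = 3) at 18 h and 0.07 ± 0.19 (SE, n = 2) at 192 h, with a limma adjusted p of 0.999 at both, and -0.20 at 18 h without replicate 5.

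Egr3 was the member with the most replicate values below 0 among the Egr genes. Its log2 ratio at 18 h was -0.17 in replicate 3 and -0.40 in replicate 4. It was -0.37 in replicate 3 at 72 h, where replicate 4 gave -0.33 on its array with tumour RNA in Cy5 alone. Replicates 1 to 4 at 192 h had 0.00, 0.12, -0.30 and -0.06. The 18 h values were both below 0, and the 192 h values lay on both sides of it. In 18 h replicate 5 only the array with tumour RNA in Cy3 gave a value, 0.47, and with 1 orientation taken as enough the 18 h mean was -0.03. The fitted log2 ratio was -0.28 ± 0.16 (SE, n = 2, limma adjusted p = 0.995) at 18 h, lower in 2 of 2 replicates, and -0.06 ± 0.11 (SE, n = 4, adjusted p = 0.999) at 192 h, or -0.18 over the total RNA replicates alone. The 18 h mean was -0.35 with the first scanner file alone and -0.13 with the third. In the deposited scores, whose log base is not given, it was -0.00. Egr3 had the narrowest interval of the members at 192 h, a fold from 0.806 to 1.14.

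Egr4 had values at 18 h of 0.04, -0.01 and -0.09 in replicates 3 to 5 and at 192 h of -0.11, -0.04 and 0.14 in replicates 1, 2 and 4. At 72 h 1 array gave a value, -0.02. All were close to 0, with fitted log2 ratios of -0.02 ± 0.12 (SE, n = 3) at 18 h and -0.00 ± 0.12 (SE, n = 3) at 192 h and folds with 95% intervals from 0.822 to 1.18 and from 0.831 to 1.20. The promoters of Egr2 and Egr4 are printed because they hold the CRE core, here in capitals with the CArG box, the site of serum response factor. The Egr2 window is 1 of 5 starts of that gene in RefSeq, chr10:67537619-67537918 on the plus strand, and the Egr4 window is chr6:85513540-85513839 on the minus strand of GRCm38.p6.
Egr2: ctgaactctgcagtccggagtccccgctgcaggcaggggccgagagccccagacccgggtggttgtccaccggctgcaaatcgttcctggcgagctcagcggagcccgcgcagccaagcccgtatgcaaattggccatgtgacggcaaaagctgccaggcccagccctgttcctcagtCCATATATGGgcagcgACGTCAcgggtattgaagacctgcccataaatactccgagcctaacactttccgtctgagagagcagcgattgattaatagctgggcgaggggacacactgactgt
Egr4: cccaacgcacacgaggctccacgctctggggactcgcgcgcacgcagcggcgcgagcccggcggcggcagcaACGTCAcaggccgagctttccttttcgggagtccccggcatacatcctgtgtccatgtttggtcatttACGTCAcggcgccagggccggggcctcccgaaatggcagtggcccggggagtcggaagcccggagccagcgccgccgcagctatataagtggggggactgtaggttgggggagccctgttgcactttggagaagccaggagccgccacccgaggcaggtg

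Nr4a2 (Nurr1) and Nr4a3 (Nor1) are orphan nuclear receptors that act without a known natural ligand, and Nr4a2 is needed for midbrain dopamine neurons. Nr4a2 had a spot on 12 arrays, and its log2 ratio was above 0 in the 6 replicates that had a value. At 18 h replicate 4 had 0.57 and replicate 5 had 0.43. At 72 h replicate 3 had 0.04 and replicate 4 had 2.23, and at 192 h replicate 2 had 0.24 and replicate 4 had 0.03. Only the 72 h value of replicate 4 was above 1. In 18 h replicate 4 the array with tumour RNA in Cy3 gave 0.95 from 1 scanner file, at the 0.275th brightness percentile. The values near 0 changed side with the processing. With the loess fitted per printed sub-grid, 72 h replicate 3 was at -0.05 and 192 h replicate 2 at -0.01. Their deposited scores were -0.03 and -0.06. In 192 h replicate 4 that loess gave -0.18 with tumour RNA in Cy3 and 0.14 with tumour RNA in Cy5. The deposited scores of these 2 arrays were -0.07 and -0.08. In 18 h replicate 4 the array with tumour RNA in Cy5 turned from 0.20 to -0.04 with that loess, and the other stood at 1.21. Both orientations of 18 h replicate 5 stayed above 0 with that loess. In 72 h replicate 4 the array with tumour RNA in Cy3 stood at 4.30, and that with tumour RNA in Cy5 turned from -0.31 to 0.17. In 18 h replicate 3, which lacked its second orientation, the array with tumour RNA in Cy3 gave -0.16. Every replicate was higher for Nr4a2 alone of 6 members at 18 h (17.7% of all probes) and of 3 at 72 h (23.1%), and for Nr4a2 and Egr2 of 7 at 192 h (12.9%). These genes had 2 replicates at those times. The shares at 18 and 192 h also hold probes with more replicates, so they are not a like base. No member had every replicate lower at 72 h (24% of all probes) or at 192 h (13%).

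The 72 h value of Nr4a2 comes from 1 array. In replicate 4 it was 4.78 with tumour RNA in Cy3, between 4.45 and 4.99 in the 3 scanner files, and -0.31 with tumour RNA in Cy5. On the first array the tumour channel was 5.53 times and the PBS channel 1.79 times the local background. On the swapped array of the same RNA they were 3.12 and 1.85 times, and the tumour RNA was not higher after the main normalisation. The sign of that swapped array changed with the processing. It was -0.17 with median centring, 0.17 with the loess fitted per sub-grid and 0.07 in the deposited score. The fitted mean was 1.14 ± 0.42 (SE, n = 2, unadjusted p = 0.0278, limma adjusted p = 1.0), higher in 2 of 2 replicates. Without replicate 3 the limma fit gave 2.23 (adjusted p = 0.0259), where the lone replicate is assumed to vary like those of the other times, and without that 1 array of replicate 4 it was -0.13. The limma means at the other times were 0.50 ± 0.42 at 18 h and 0.14 ± 0.42 at 192 h (SE, n = 2 each, adjusted p = 0.999 at both). With 1 orientation taken as enough they were 0.28 at 18 h and 0.27 at 192 h.

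Nr4a3 had a spot on 12 arrays and none at 72 h, where 1 or both channels carried a mark that was left out. Replicates 3 to 5 at 18 h had log2 ratios of -0.02, -0.64 and 0.77, and replicates 1 to 3 at 192 h had -2.24, 1.95 and 0.18. The replicates lay on both sides of 0 at both times, with a larger spread than any other member had at these times. The fit gave 0.03 ± 0.62 (SE, n = 3) at 18 h and -0.04 ± 0.62 (SE, n = 3) at 192 h, with limma adjusted p of 0.999 at both. Its fold at 192 h had a 95% interval from 0.366 to 2.60 in this fit. The promoter of Nr4a3 holds the CRE core 3 times, the most of the 6 members with a promoter window. Its window is chr4:48045055-48045354 on the plus strand of GRCm38.p6 and is printed with that core in capitals.
Nr4a3: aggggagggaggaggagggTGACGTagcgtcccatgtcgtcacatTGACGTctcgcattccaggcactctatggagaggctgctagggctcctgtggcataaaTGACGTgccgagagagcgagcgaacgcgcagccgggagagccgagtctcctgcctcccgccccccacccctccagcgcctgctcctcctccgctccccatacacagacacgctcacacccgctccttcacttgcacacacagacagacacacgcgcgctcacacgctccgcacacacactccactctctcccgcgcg

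The spread of Nr4a3 ran with the dye. With tumour RNA in Cy3 its log2 ratio was -0.03, 0.44 and 3.79 in replicates 3 to 5 at 18 h, and at 192 h 2.44 and 1.46 on the 2 arrays of replicate 2, 0.96 in replicate 3 and 0.05 in replicate 4. With tumour RNA in Cy5 the 18 h replicates 3 to 5 had -0.01, -1.73 and -2.25, and at 192 h replicate 1 had -2.24 and replicate 3 had -0.60. After normalisation the spot was thus brighter in Cy3 than in Cy5 on 11 of 12 arrays, whichever RNA Cy3 held. The same count was 12 of 14 for Fos and 11 of 14 for Fosb, and 6 to 8 of 11 to 14 for the other members. In the authors' deposited scores Nr4a3 was higher with tumour RNA in Cy3 on 7 of 7 arrays and lower with tumour RNA in Cy5 on 5 of 5. When the loess was fitted per printed sub-grid, the counts were again 7 of 7 and 5 of 5, and with median centring and no loess they were 6 of 7 and 5 of 5. For Fos and Fosb the counts depended more on the processing. In the deposited scores they were 7 of 7 and 5 of 7 for Fos and 8 of 8 and 5 of 6 for Fosb. With median centring they were 4 of 7 and 5 of 7 for Fos and 5 of 8 and 3 of 6 for Fosb. Without background subtraction they were 4 of 7 and 4 of 7 for Fos and 5 of 8 and 4 of 6 for Fosb.

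To size this, the log2 ratio with tumour RNA in Cy5 was subtracted from that with tumour RNA in Cy3 in each swapped replicate and the difference halved. For Nr4a3 the mean of 4 swaps was 1.22, at the 99.4th percentile of the absolute value among 8863 probes, whose median was 0.107. Single swaps ran from -0.01 to 3.02. Nr4a2 had a mean of 0.67, the 98.0th percentile, from the 1 array at 72 h, since its other 3 swaps lay between -0.13 and 0.37. Fosb had 0.37, the 92.5th percentile, with 1.04 and 0.49 in the 18 h replicates and 0.00 and -0.06 later. Fos stood at 0.17, Egr3 at -0.12, Egr2 at 0.10 and Egr4 at 0.08, between the 40.4th and the 70.9th percentile. Means over both orientations, as in the fits above, take out a difference of this kind where it is equal in both arrays. They do not do so in the 3 replicates measured in 1 orientation, which are 72 h replicate 3 and the poly(A) replicates 1 and 2 at 192 h.

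**Figure D2:**
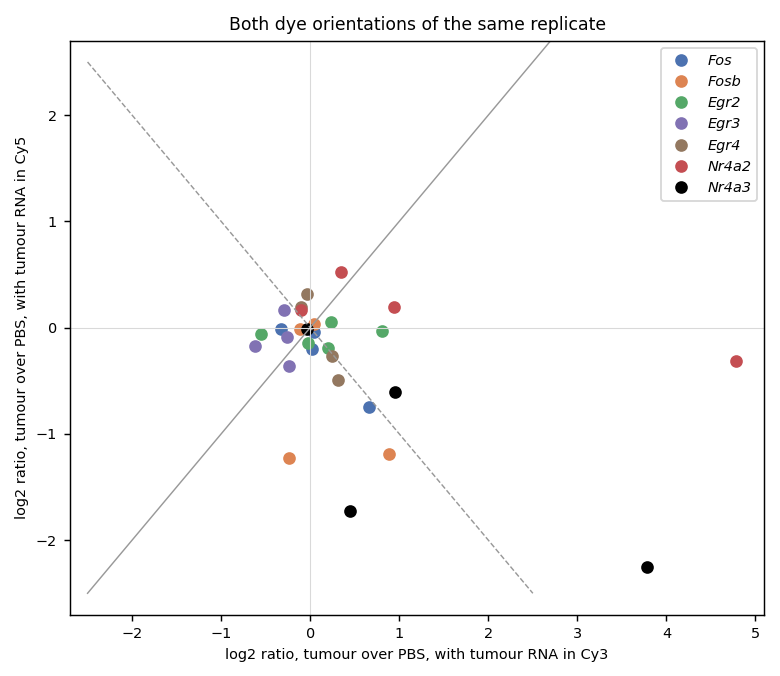
Log2 ratio of tumour over PBS with tumour RNA in Cy3 (horizontal axis) and in Cy5 (vertical axis), 1 point per gene and swapped replicate. Points on the solid line gave the same ratio in both orientations and points on the dashed line opposite ratios. The Nr4a3 points of 18 h replicate 5 (3.79 and -2.25) and the Nr4a2 point of 72 h replicate 4 (4.78 and -0.31) lie farthest out.

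The replicate values by time put these spreads side by side. Nr4a3 at 192 h was 1.06 without replicate 1 and -1.03 without replicate 2. With the dye orientation of a replicate as a covariate it stood at -0.04 ± 0.23, against ± 0.62 without (SE). For Nr4a3 only these replicates 1 and 2 were measured in 1 orientation, so the covariate takes up the difference between them, from whatever source. The smaller SE was therefore fixed by the design and is no test of the dye. The same covariate moved Nr4a2 at 192 h to -0.46 ± 0.35 and at 72 h to 1.74 ± 0.35 (limma adjusted p = 0.885). It left Fosb at 18 h at -0.44 ± 0.19 (limma adjusted p = 0.808) and moved Fosb at 72 h to 0.27 ± 0.21 and Fos at 72 h to 0.14 ± 0.19.

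**Figure D3:**
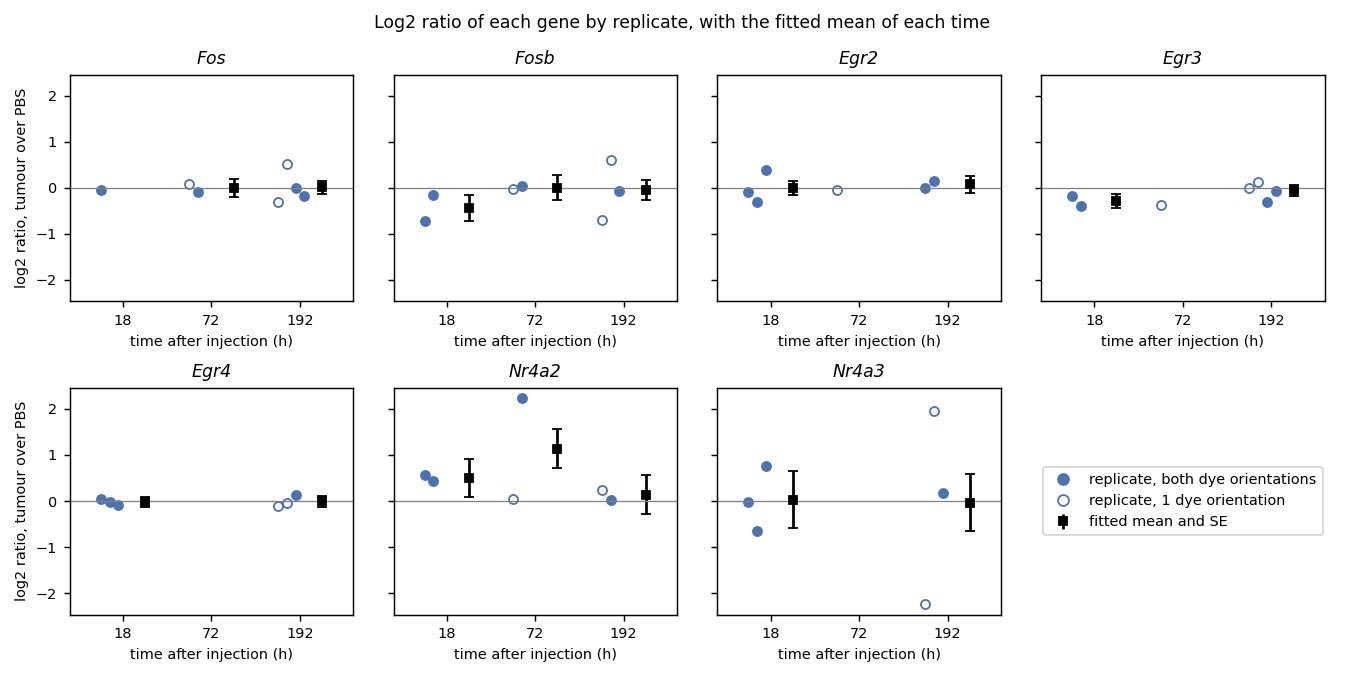
Log2 ratio of tumour over PBS (vertical axis) of each replicate at 18, 72 and 192 h (horizontal axis), 1 panel per gene. Filled circles are replicates measured in both dye orientations, open circles those measured in 1, and squares with bars the fitted mean and its standard error where at least 2 replicates had a value. The open circles of Nr4a3 at 192 h stand at -2.24 and 1.95.

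The differences between times ask whether the tumour over PBS ratio moved with time after the injection. No member passed the limma test of a difference between times. From 18 to 72 h 0 of 2 members passed an adjusted p of 0.05 (0% of 3373 probes), from 18 to 192 h 0 of 6 (0% of 4839) and from 72 to 192 h 0 of 3 (0% of 4246). At an unadjusted p under 0.05 the members' counts were again 0, against 1.87%, 3.2% and 1.15% of all probes. The 192 h minus 18 h difference was 0.39 ± 0.35 for Fosb, 0.23 ± 0.19 for Egr3, 0.08 ± 0.25 for Egr2, 0.01 ± 0.16 for Egr4, -0.07 ± 0.88 for Nr4a3 and -0.36 ± 0.60 for Nr4a2 (SE). The 192 h minus 72 h difference of Nr4a2 was -0.998 ± 0.60 (limma adjusted p = 1.0). Leaving out 72 h replicate 3 made it -2.10 and leaving out replicate 4 made it 0.10. The 18 and 72 h replicates were total RNA on the same print layout, where those of 192 h also included poly(A) RNA and other layouts. Time is thus not cleanly separated from RNA kind and layout in the 192 h differences. The 72 h minus 18 h difference was 0.45 ± 0.39 for Fosb and 0.63 ± 0.60 for Nr4a2 (SE). With other processing or with replicates left out, that of Fosb ran from 0.16 to 0.73. That of Nr4a2 was 1.73 without 72 h replicate 3 and -0.46 without replicate 4.

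Among themselves, Fos and Fosb were the only pair of members with 6 shared replicates, and their log2 ratios had a Pearson correlation of 0.91 over these 6. They share the arrays, and both were low in 192 h replicate 1, with tumour RNA in Cy5, and high in replicate 2, with tumour RNA in Cy3. The 2 genes whose ratios ran most like each member, over 6 shared replicates, were Patz1 and Ms4a6c for Fos (r = 0.99 and 0.98), Pou5f2 and Naa20 for Fosb (0.98 and 0.98), and Cpeb1 and Anapc5 for Egr2 (0.96 and 0.95). For Egr3 they were Epb41l3 and Scrg1 (0.97 and 0.96), for Egr4 Ift27 and Irak1 (0.95 and 0.94), for Nr4a2 Lsm1 and Cyb5a (0.99 and 0.96) and for Nr4a3 Tagln2 and Ccdc151 (0.99 and 0.98). Each pair is the highest of 923 to 3464 probes compared with that member over only 6 values, which is a description and no sign of a shared control.

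Promoter windows from RefSeq were matched for 6 of the 7 members, and several short motifs were searched on both strands. The CRE core TGACGT was in those of 4 members (Fos, Egr2, Egr4 and Nr4a3) and in 8.37% of 27025 genes. The full palindrome TGACGTCA, which contains it, was in none of the 6 and in 2.03% of all genes. The CArG box was in the windows of Egr2 alone (1.81% of all genes), and Egr2 had 5 windows to search. The AP-1 site TGANTCA, the Egr site GCGTGGGCG and the Nr4a site AAAGGTCA were in none of the 6 windows, and in 8.97%, 0.707% and 1.7% of all genes. Sites more than 250 bases before a start, or with other letters, were not searched, so a motif not found here may lie elsewhere. A match is only a run of letters, and the arrays did not measure binding.

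Other genes of the same response were counted from 5 lists. The arrays held 2 of the 6 other Fos, Jun, Egr and Nr4a genes, 8 of 15 other induced transcription factors, 13 of 24 effector genes that these factors or the same signals switch on, 11 of 30 upstream regulators and 7 of 13 partners and corepressors. Not all of these were tested at each time. In the same order of lists, 1, 5, 10, 5 and 6 genes were tested at 18 h. At 72 h they were 2, 5, 9, 9 and 2, and at 192 h 2, 6, 12, 11 and 4. By the limma test 0 of those tested passed an adjusted p of 0.05 at any time, where the share among all probes was also 0%. Of the other family members, the AP-1 partner Jund stood at -0.12, -0.10 and -0.04 over the 3 times. Fosl2, a Fos relative, was at -0.71 ± 0.35 at 72 h, with 0.12 and -1.54 in its 2 replicates, and at -0.15 ± 0.29 at 192 h (SE).

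Of the effector genes, 4 were above and 6 below 0 at 18 h (median -0.04), 1 above and 8 below at 72 h (median -0.14), and 7 above and 5 below at 192 h (median 0.03). Arc, a synaptic protein whose mRNA travels to active dendrites, had the smallest p of this list at 18 h. Its log2 ratio was 1.21 ± 0.37 (SE, n = 3, unadjusted p = 0.00882, limma adjusted p = 0.995), higher in 3 of 3 replicates, which stood at 0.02, 2.64 and 0.96. It was 0.49 without replicate 4, the highest. The second, Syt4, a synaptotagmin of vesicles, was at -0.72 ± 0.28 (SE, limma adjusted p = 0.995) and lower in 2 of 3. Its replicates stood at 0.03, -0.32 and -1.86. At 72 h the 2 genes with the smallest p were Ifrd1 (-0.20 ± 0.16) and Rheb, a GTPase upstream of mTOR (-0.28 ± 0.23). At 192 h Gadd45b, a stress and activity response gene, was at -0.55 ± 0.19 (SE, limma adjusted p = 0.999) and lower in 2 of 2, and Ccn1, a secreted matrix protein, at 0.45 ± 0.23 (SE).

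Of the other induced transcription factors, 4 of 5 were above 0 at 18 h (median 0.16), 2 of 5 at 72 h (median -0.01) and 2 of 6 at 192 h (median -0.11). Nfil3, a basic leucine zipper repressor, was at 0.68 ± 0.27 at 18 h (unadjusted p = 0.0345, limma adjusted p = 0.995), with 1.23 and 0.14 in its 2 replicates, and at -0.03 when the loess was fitted per sub-grid. It was at -0.30 ± 0.22 at 192 h. Btg2, an antiproliferative gene, was at 0.23 ± 0.15 at 18 h. Ier5 was at 0.21 ± 0.16 and Bhlhe40, a circadian repressor, at 0.19 ± 0.16 at 72 h. At 192 h Ier5 was at -0.18 ± 0.13 and lower in 3 of 3 (SE).

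Of the upstream regulators, 1 of 5 was above 0 at 18 h, 1 of 9 at 72 h and 6 of 11 at 192 h, and the medians were -0.24, -0.11 and 0.03 in the same order. Camk2b, a subunit of calcium and calmodulin-dependent kinase II, was at 0.43 ± 0.17 at 18 h (SE, limma adjusted p = 0.995), higher in 2 of 2, and at -0.29 ± 0.17 at 72 h, lower in 2 of 2. Elk1, which binds beside serum response factor, was at -0.27 ± 0.17 at 18 h, and Srf itself at -0.14 ± 0.15 at 72 h. At 192 h Elk4 was at 0.44 ± 0.21 and Creb1, the factor that binds the CRE, at 0.27 ± 0.27 (SE). Creb1 was lower in 2 of its 3 replicates, which stood at -0.12, 1.13 and -0.19. Of the partners and corepressors, 1 of 6 was above 0 at 18 h, 0 of 2 at 72 h and 4 of 4 at 192 h. Nab1, which represses Egr proteins, was at -0.14 ± 0.12 at 18 h and 0.14 ± 0.10 at 192 h, and Mafk at 0.45 ± 0.28 at 192 h. The 3 replicates of Mafk stood at 1.43, -0.17 and 0.10. Rxra, a partner of Nr4a receptors, was at -0.06 ± 0.18 at both 18 and 72 h, and Batf3 at -0.04 ± 0.14 at 72 h (SE).

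The list values at 72 h rest in part on replicate 3. Without it the genes above 0 were 3 of 5 other induced transcription factors (median 0.07), 4 of 9 effector genes (median -0.00), 3 of 9 upstream regulators (median -0.03), 1 of 2 partners and corepressors and 0 of 2 other family members. Bhlhe40 then stood at -0.10 and Rxra at 0.20, each on the other side of 0. Fosl2 was at -1.54, Jund at -0.04, Ier5 at 0.40, Ifrd1 at -0.11 and Rheb at -0.05 without replicate 3. Camk2b was at -0.03, Srf at -0.05 and Batf3 at -0.13.

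**Figure D4:**
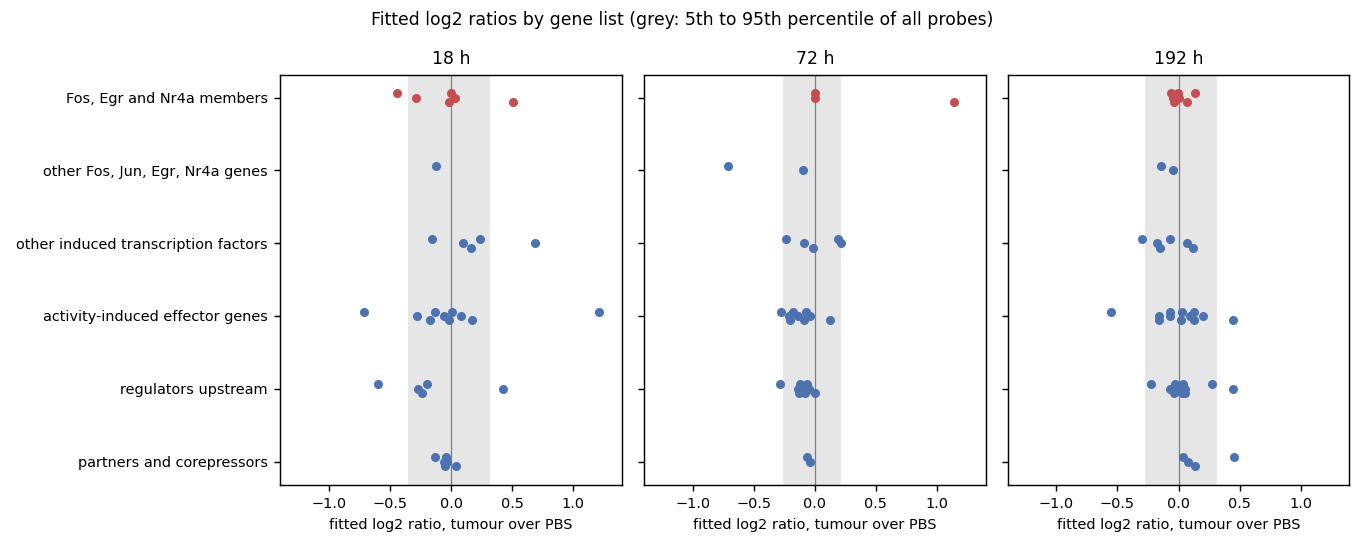
Fitted log2 ratio of tumour over PBS (horizontal axis) of each gene tested at 18, 72 and 192 h, by list (vertical axis), members in red and the other lists in blue. The grey band is the 5th to 95th percentile of all probes, -0.34 to 0.31 at 18 h, -0.25 to 0.21 at 72 h and -0.26 to 0.31 at 192 h. Outside it lie Fosb (-0.44) and Nr4a2 (0.50) among the 6 members at 18 h and Nr4a2 (1.14) among the 3 at 72 h, and all 7 members at 192 h lie inside it.

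The sub-grids that hold the members agreed less with other layouts at 18 h than at 192 h, and the part of this in the ratios was not tested. Brightness was compared with arrays of other layouts inside each printed sub-grid, a choice made after the data were seen. On the 18 h arrays the rho in the sub-grid of Egr2 was -0.00 to 0.28 and in that of Nr4a2 -0.00 to 0.38, where on the 192 h arrays it was 0.41 to 0.74 and 0.55 to 0.68. The rho for Fos was 0.18 to 0.57 at 18 h and 0.63 to 0.80 at 192 h, and for Egr4 0.30 to 0.65 and 0.55 to 0.68. Egr3 had 0.21 to 0.67 at 18 h and 0.37 to 0.62 at 192 h. Fosb and Nr4a3, which share a sub-grid on each array, had 0.10 to 0.48 and 0.44 to 0.64. With only sub-grids of a rho of at least 0.3, Egr4 was the only member left with a test at 18 h, at -0.05 ± 0.15 (SE, limma adjusted p = 0.999), and the 192 h values stayed as given.

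**Figure D5:**
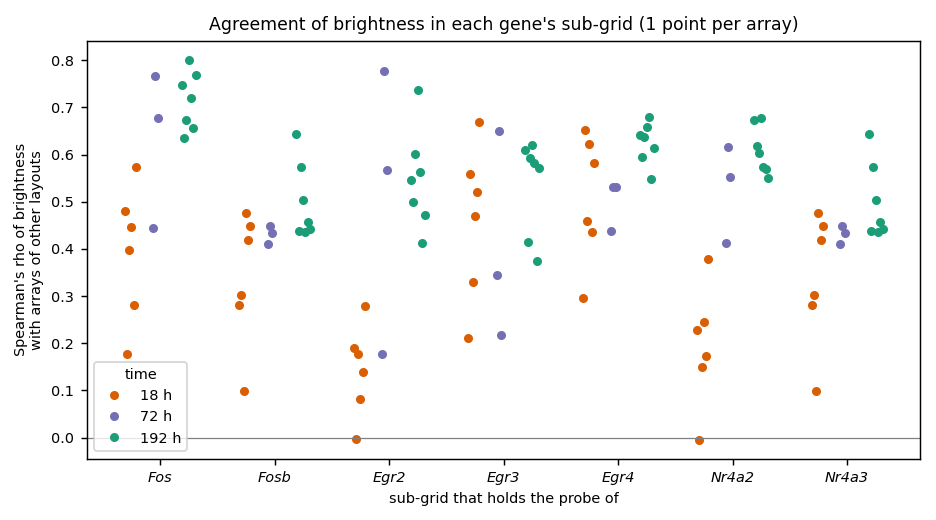
Spearman's rho (vertical axis) between brightness in the sub-grid that holds a gene's probe and brightness of the same probes on arrays of other layouts, 1 point per kept array, by gene (horizontal axis) and time (colour). For Egr2 and Nr4a2 all 18 h points lie below 0.4, and all 192 h points lie above it.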

How the data were processed

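Spot intensities were deposited by the authors as 3 scanner files per array, with the local background already subtracted per the file headers. The authors also deposited a score per probe and array, centred near 0, whose method and log base are not given in the sources used here. Image software, settings and normalization are not given there either. From the intensities, spots marked B, X, Y or Z or with a channel not above 0 were left out, and each file's log2 ratio was normalised by loess (span 0.3, 4 iterations) and turned to tumour over PBS. The 3 files were averaged, then the arrays of an orientation, then the orientations. Dye-swapped replicates needed a value in both. Spots of 1 GenBank accession made 1 probe, and 8997 of 9008 probes had 1 symbol.

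Arrays with a mean rho under 0.1 with other layouts were left out. Replicate values were fitted with limma 3.58.1 in R 4.3.3 (lmFit and eBayes, 1 mean per time, at least 2 replicates per time), with Benjamini-Hochberg adjustment over all probes of a comparison and a threshold of 0.05. The script was tested on simulated data. The members and the gene lists were chosen with earlier results of these data known. Named with values were the members, the 2 genes of each list with the smallest p at each time, and the 2 genes most correlated with each member over at least 6 shared replicates. Alternatives covered normalization, background, filters, scanner file, dye, RNA kind, arrays kept, replicates left out, blocks and the deposited scores. Promoter windows are RefSeq's on GRCm38.p6.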

Additional observations from a re-analysis of the deposited data

How the results depend on the processing

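Many alternatives, such as leaving out a replicate of another time, do not touch the replicates behind a value, which then cannot move. The counts of members and list genes that stayed are thus partly fixed by design and do not measure stability. They also include the deposited scores, whose log base is not given, set against a standard error on the log2 scale. Under the alternatives, 617 of 659 values of members moved by less than 1 standard error, and 81 of the 659 changed sign. Among those that moved further, Nr4a3 at 192 h stood at 1.06 without replicate 1. The only member value with an unadjusted p under 0.05, Nr4a2 at 72 h, turned to -0.13 without the replicate 4 array with tumour RNA in Cy3, an alternative chosen after seeing the data, as was the limit on sub-grids. It passed the threshold in 2 alternatives, which each leave 1 replicate at 72 h. Among the list genes, 616 of 700 values moved by less than 1 standard error and 30 changed sign, among them Nfil3 at 18 h, at -0.027 when the loess was fitted per sub-grid. The cause was not tested.

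Counts of probes called by limma were 0 in all 6 comparisons. With only dye-swapped replicates, which leaves 1 at 72 h that is assumed to vary like those of other times, they were 8 at 72 h, of which 1 was a member, Nr4a2, 1 for 72 h minus 18 h and 2 for 192 h minus 72 h. With the dye orientation as a covariate 1 probe was called at 72 h, 1 at 192 h, 1 for 192 h minus 18 h and 1 for 192 h minus 72 h. Leaving out 1 replicate gave 0 to 6 probes at 18 h (6 without 18 h replicate 3), 0 to 9 at 72 h (9, with 0 to 1 members, without 72 h replicate 3) and 0 to 10 at 192 h (10 without 192 h replicate 4). For the differences it gave 0 to 4 for 72 h minus 18 h (4 without 18 h replicate 3), 0 to 7 for 192 h minus 18 h (7 without 192 h replicate 4) and 0 to 1 for 192 h minus 72 h. With the replicate number as a block, 4 probes were called for 72 h minus 18 h and 14 for 192 h minus 18 h, none of them a member. No pairing of samples by replicate number was seen, which so few pairs could not exclude. Deviations of same-numbered replicates correlated at -0.12 to 0.01 over 6 pairs, and 0 of 6 replicates correlated best with their own number. Median signals of the members were 1.86 to 4.05 times the local background, where the medians of the kept arrays were 1.97 to 3.15.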
